A study of Mus musculus with 6 samples.

Results

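The genes of the YAP/TAZ and TEAD system were examined in RNA-seq of Rnf40+/+ and Rnf40-/- mouse embryonic fibroblasts (MEFs). The 10 genes were chosen by symbol and are the coactivators Yap1 and Wwtr1 (TAZ), the DNA-binding partners Tead1, Tead2, Tead3 and Tead4, and the target genes Ctgf, Cyr61, Ankrd1 and Amotl2. All 10 are among the 29955 genes of the deposited table, and all 10 had enough reads to be tested, as did 16378 genes in all.

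YAP and TAZ are transcriptional coactivators that bind no DNA themselves. When the Hippo kinases are inactive, or when cells are spread on a stiff matrix, they enter the nucleus, bind a TEAD factor and switch on genes for growth, adhesion and matrix. The kinases LATS1 and LATS2 phosphorylate YAP and TAZ, which keeps them in the cytoplasm. In fibroblasts the system is known for its part in the response to mechanical tension. Its activity is set largely by phosphorylation and location of the proteins, neither of which is seen in RNA.

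RNF40 is a subunit of the ligase that places ubiquitin on histone H2B. The study's methods describe MEFs from Rosa26-CreERT2, Rnf40 loxP/loxP embryos, in which a ubiquitously expressed, 4-hydroxytamoxifen-inducible Cre removes exons 3 and 4 of Rnf40. For the knockout, cells received 250 nM 4-hydroxytamoxifen (4-OHT) for 5 days and then grew for 3 days without it, and RNA was taken at passage 3 in both genotypes. Each genotype has 3 libraries, and the sources used here do not say whether the libraries of a genotype came from separate embryos, so p values measure the spread between these libraries. Embryos with both loxP alleles and the Cre are the only source of MEFs that the methods name, but whether the Rnf40+/+ cells are the same cells without 4-OHT is not stated, and deletion and drug treatment cannot be told apart. Normalized counts of Rnf40 were 1278, 1195 and 1096 in Rnf40+/+ and 439, 519 and 487 in Rnf40-/- libraries, in which the transcript was reduced but not lost. Its longest annotated transcript has 20 exons, and counts over the whole gene do not separate exons 3 and 4 from the rest. By western blot, the paper reports that the deletion and the loss of ubiquitin on H2B were effective.

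The libraries held between 17053436 and 26344170 reads on genes, and a member had between 82 and 41303 reads in a library. All 8 fibroblast markers (such as Col1a1, Vim and Thy1) were abundant in every library, and their summed normalized count was between 374046 and 428596 in Rnf40+/+ and between 197745 and 213562 in Rnf40-/- libraries. This sum is mainly Col1a2, Col1a1 and Vim, of which 20.8%, 56.5% and 83.5% of the Rnf40+/+ mean were left. The markers thus fell by unlike amounts. Rnf40+/+ replicate 1 stood apart in striated muscle markers, whose summed normalized count was 1447 there and between 133 and 225 elsewhere, mainly through the cardiac actin gene Actc1. Its normalized counts of the Y-linked genes were also the highest, at 81.2 for Ddx3y against 7.14 or fewer. The X-linked gene Xist had between 7178 and 9616 normalized counts in every library, with 9345 in this one. Rnf40+/+ replicate 3 had the highest sum of 8 macrophage markers, 9476 against 5560 and 5979 in the other Rnf40+/+ libraries and between 3570 and 3943 in Rnf40-/- libraries. This sum is mainly Lyz2. Of the 8 markers, 2 were lower without overlap (Lyz2 and Tyrobp) and 3 were higher (Ptprc, Cd14 and Emr1). The 5 endothelial markers summed to between 51.0 and 146 in Rnf40+/+ and between 179 and 283 in Rnf40-/- libraries, and the 5 epithelial markers to 97.9 or less in every library. Their part in the results was not tested. In bulk RNA, fewer cells of a type and less RNA per cell cannot be told apart.

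Of the 10 genes, 5 were lower in Rnf40-/- MEFs (Yap1, Tead2, Tead3, Ankrd1 and Amotl2) and 1 was higher (Tead4), at a limit of 0.05 for the adjusted p. The test was that of limma, applied to log2(normalized count + 1), where a normalized count is the number of reads of a gene divided by the size factor of its library, and adjusted with the Benjamini-Hochberg method over all genes tested. Among all genes tested 24.1% were lower and 23.3% higher by this rule, so that 47.4% were called in either direction. Over the 10 genes the median difference was -0.12 in log2, against -0.0035 for all genes tested. The limits of the study, a p under 0.05, a mean above 15 and an absolute log2 fold change above 1, were applied to the limma fit. Ankrd1 alone passed, and 5.7% of all genes were lower and 4.25% higher. All 3 Rnf40-/- libraries lay below the Rnf40+/+ libraries for these 5 genes, as for 28.7% of all genes, and above them for 3 (Tead1, Tead4 and Cyr61), as for 27.8%, which makes 56.5% of all genes without overlap. The 5 genes remained lower without Rnf40+/+ replicate 1 and without Rnf40+/+ replicate 3, the libraries with the highest summed muscle and macrophage markers. Leaving them out does not even out these markers. The muscle sums of the other Rnf40+/+ libraries were 208 and 225 without replicate 1, against 133 to 192 in Rnf40-/- libraries. Without replicate 3 the macrophage sums were 5560 and 5979, against 3570 to 3943. The part of such cells was thus not tested.

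**Figure D1:**
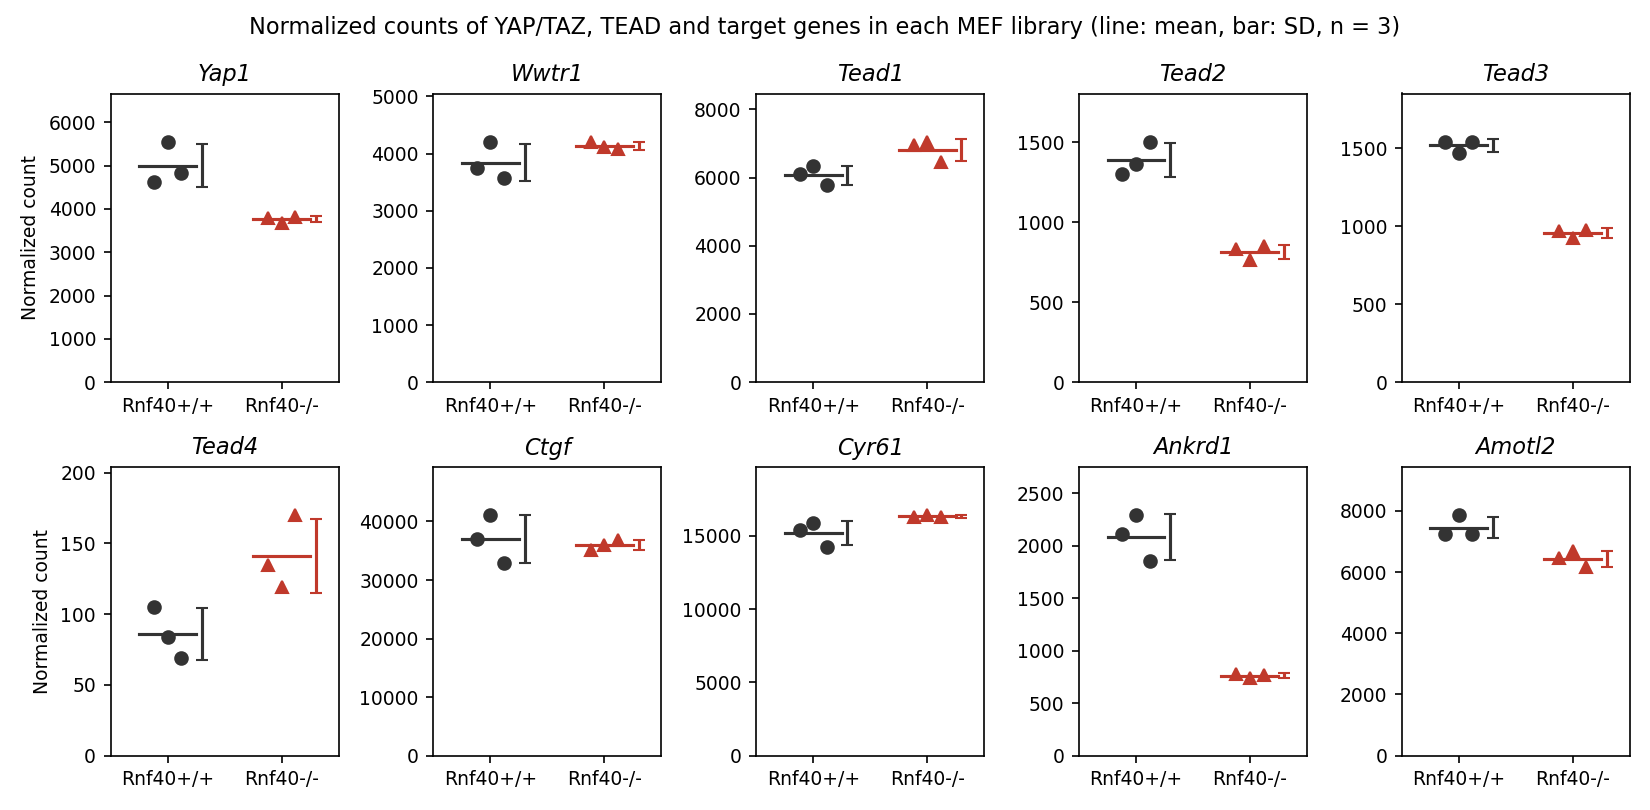
Normalized counts (vertical axes, each from 0) of the 10 genes in each library, with Rnf40+/+ libraries as black circles, Rnf40-/- libraries as red triangles, lines for means and bars for the SD of 3 libraries. The symbols of the genotypes are far apart for Tead2, Tead3 and Ankrd1 and overlap for Ctgf and Wwtr1.

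**Figure D2:**
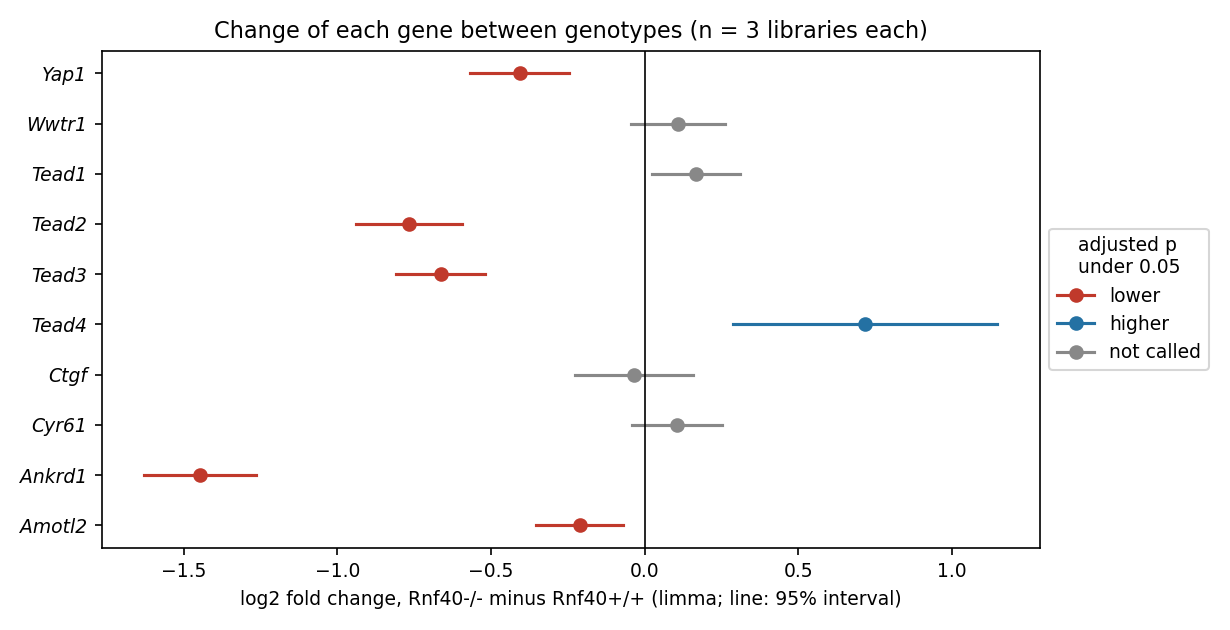
Log2 fold change of each gene (Rnf40-/- minus Rnf40+/+, horizontal axis) with the 95% interval of limma from 3 libraries per genotype, in red where lower, blue where higher and grey where not called at an adjusted p under 0.05. Ankrd1 lies farthest from 0, at -1.45, and the intervals of Wwtr1, Ctgf and Cyr61 include 0.

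The 2 coactivators did not move alike. Yap1 (ENSMUSG00000053110) maps to the minus strand of chromosome 9, 7931999 to 8004596 (mm9, as for all positions given here). Its normalized counts were 4622, 5552 and 4822 in Rnf40+/+ and 3784, 3677 and 3817 in Rnf40-/- libraries. Every Rnf40-/- library was below every Rnf40+/+ library, and 75.2% of the Rnf40+/+ level was left. The means were 4998 ± 489 and 3759 ± 73.5 (SD, n = 3 each), and the difference was -0.41 in log2 (standard error, SE, 0.07, limma adjusted p = 0.000757). Wwtr1 (ENSMUSG00000027803, chromosome 3, 57259571 to 57379832), which encodes TAZ, had 3756, 4194 and 3572 normalized counts in Rnf40+/+ and 4209, 4107 and 4074 in Rnf40-/- libraries. The ranges overlapped through Rnf40+/+ replicate 2. Wwtr1 differed by 0.11 in log2, with a 95% interval from -0.04 to 0.26 (limma adjusted p = 0.226). Without Rnf40+/+ replicate 2 it was 0.17 and past the threshold (limma adjusted p = 0.0441).

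Levels of different genes are compared per kb of the longest annotated transcript, since a longer transcript gives more reads. On this scale Yap1 made up 52.2%, 54.1% and 54.6% of the sum of Yap1 and Wwtr1 in Rnf40+/+ and 44.4%, 44.3% and 45.5% in Rnf40-/- libraries. The share of Yap1 was thus lower in each Rnf40-/- library than in any Rnf40+/+ library. Which of the 2 genes had the larger share depended on the transcript taken for Yap1: with its longest protein-coding transcript (4171 in place of 5282 nt, chosen after seeing the data), Yap1 made up between 58.1% and 60.3% in Rnf40+/+ and between 50.2% and 51.3% in Rnf40-/- libraries, so that it kept the larger share in all 6. An exact two-sided permutation test of this share gave p = 0.1, the smallest value that 3 libraries against 3 allow, and 0.108 after adjustment over the 14 shares, sums and ratios compared. The sum of both per kb was 1764 ± 156 in Rnf40+/+ and 1591 ± 21.1 in Rnf40-/- MEFs (SD, n = 3 each), and it was lower in every Rnf40-/- library than in any Rnf40+/+ library.

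The 4 TEAD genes encode factors with a shared DNA-binding domain that bring YAP or TAZ to chromatin. Of these, 2 fell, 1 rose and Tead1 was just outside the threshold. Tead2 (ENSMUSG00000030796, chromosome 7, 52471123 to 52489005), known for its expression in early embryos, had 1299, 1365 and 1504.5 normalized counts in Rnf40+/+ and 831, 766 and 851 in Rnf40-/- libraries. The lowest Rnf40+/+ library was well above the highest Rnf40-/- library. Tead2 changed by -0.77 in log2 (SE 0.08, limma adjusted p = 1.02e-05), which left 58.7% of the Rnf40+/+ level. The study's methods name a directional library kit, but the counting is not stated to use strand. The coding gene Cd37, which overlaps Tead2 on the other strand, had between 14.3 and 35.1 normalized counts. Noncoding or pseudogene entries of the annotation overlap Yap1, Wwtr1, Tead1 and Ctgf on the other strand. If strand was not used, reads of these cannot be told apart from those of the genes.

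Tead3 (ENSMUSG00000002249, chromosome 17, 28468616 to 28487750) had 1543, 1472 and 1539.6 normalized counts in Rnf40+/+ and 971, 924 and 979 in Rnf40-/- libraries. The libraries of a genotype lay close together and the genotypes were far apart. For Tead3 the difference was -0.66 in log2 (SE 0.07, limma adjusted p = 8.27e-06), or 63.1% of the Rnf40+/+ level. The log2 ratio of Tead2 to Tead3 within a library was -0.13 ± 0.11 in Rnf40+/+ and -0.23 ± 0.03 in Rnf40-/- MEFs (SD, n = 3 each), with ranges that overlapped (p = 0.3, exact two-sided permutation test), so that a difference between their falls was not detectable.

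Tead4 (ENSMUSG00000030353, chromosome 6, 128174306 to 128250841), which is known for its role in the trophoblast and in muscle precursors, was the TEAD gene with the fewest reads. It had 105, 83.6 and 68.7 normalized counts in Rnf40+/+ and 135, 119 and 170.0 in Rnf40-/- libraries. The groups did not overlap, but the spread within each was wide. Tead4 rose by 0.72 in log2 (SE 0.20, 95% interval 0.29 to 1.15, limma adjusted p = 0.0101). Without Rnf40-/- replicate 3, its highest library, Tead4 was not past the threshold (0.58, limma adjusted p = 0.0571).

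Tead1 (ENSMUSG00000055320, chromosome 7, 119822832 to 120050319) had 6103, 6332 and 5775 normalized counts in Rnf40+/+ and 6944, 7057 and 6455 in Rnf40-/- libraries. All 3 Rnf40-/- libraries were above the Rnf40+/+ libraries, the nearest by a small distance. This difference, 0.17 in log2 (95% interval 0.03 to 0.31), had a limma adjusted p of 0.052. By the quasi-likelihood test of edgeR on the recovered reads the adjusted p was 0.0399, and over all alternatives it was between 0.0338 and 0.177, so that the call of Tead1 turned on the test and on single libraries.

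The makeup of the TEAD pool was set out as shares of the 4 genes. Per kb, Tead1 made up 41.5%, 42.6% and 38.8% of the TEAD sum in Rnf40+/+ and 55.0%, 57.1% and 52.3% in Rnf40-/- libraries. The share of Tead2 was 27.5% ± 1.96 in Rnf40+/+ and 19.2% ± 1.03 in Rnf40-/- MEFs, and that of Tead3 was 29.7% ± 0.89 and 22.3% ± 0.68 (SD, n = 3 each). Tead4 was the smallest part in both, with 1.88% ± 0.41 and 3.68% ± 0.70 (SD, n = 3 each). The sum itself was 1488 ± 8.51 per kb in Rnf40+/+ and 1249 ± 16.2 per kb in Rnf40-/- MEFs, or 84.0% of the Rnf40+/+ level. None of these shares overlapped between the genotypes, and an exact two-sided permutation test gave p = 0.1 (0.108 adjusted) for each and for the sum, the smallest value possible. The shares depend on the annotated transcript lengths. They also depend on one another, since a fall of 1 gene raises the shares of the rest. Tead1 itself had 609 ± 28.1 per kb in Rnf40+/+ and 684 ± 32.2 in Rnf40-/- MEFs. Tead2 went from 409 ± 30.8 to 240 ± 13.0 and Tead3 from 441 ± 11.7 to 278 ± 8.69 (SD, n = 3 each).

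**Figure D3:**
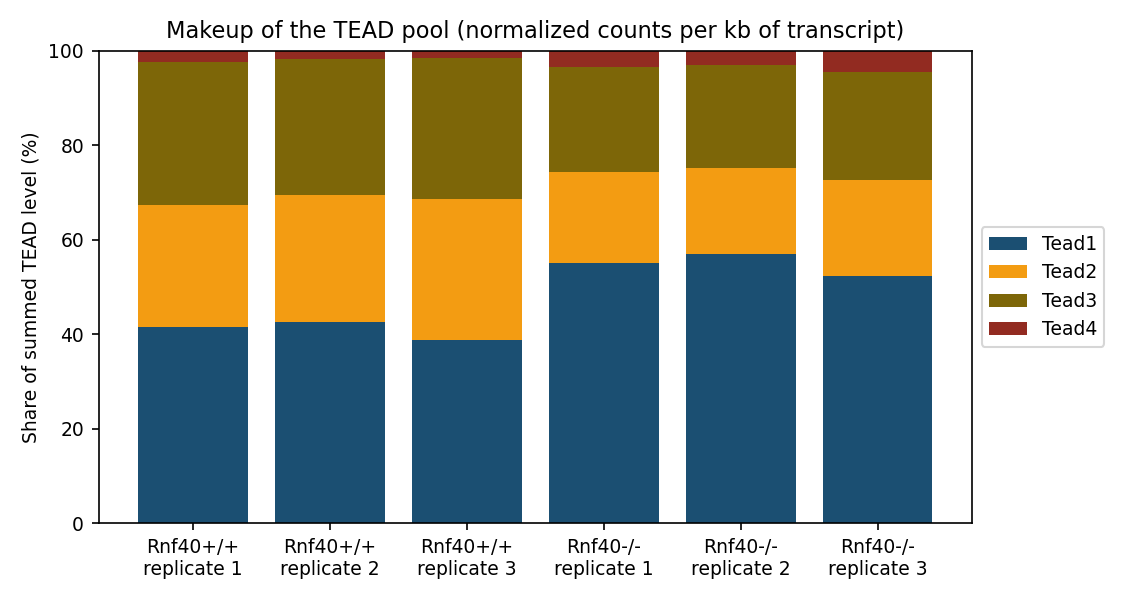
Share of Tead1, Tead2, Tead3 and Tead4 in their summed level, in percent of normalized counts per kb of transcript (vertical axis from 0), in each of the 6 libraries. Tead1 is between 38.8% and 42.6% in the Rnf40+/+ bars and between 52.3% and 57.1% in the Rnf40-/- bars.

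Among the 4 target genes, Ankrd1 and Amotl2 fell and Ctgf and Cyr61 were not called. The promoters of the target genes with an entry in the RefSeq table are shown because TEAD factors recognize the letters GGAATG. Each window holds 250 bases before and 50 bases from the transcription start, is given 5′ to 3′ on the gene's strand, and has GGAATG or its reverse complement CATTCC in capitals. The Ankrd1 window is chr19:36194285-36194584 on the minus strand, the Cyr61 window chr3:145312900-145313199 on the minus strand and the Amotl2 window chr9:102619884-102620183 on the plus strand. The sequences are those of RefSeq on GRCm38.p6, and these positions are from their exact match to mm9.
Ankrd1: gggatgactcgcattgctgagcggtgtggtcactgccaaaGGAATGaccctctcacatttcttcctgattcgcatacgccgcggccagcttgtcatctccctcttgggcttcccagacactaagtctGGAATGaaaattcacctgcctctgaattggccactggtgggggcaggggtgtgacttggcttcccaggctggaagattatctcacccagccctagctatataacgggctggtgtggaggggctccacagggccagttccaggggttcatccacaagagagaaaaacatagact
Cyr61: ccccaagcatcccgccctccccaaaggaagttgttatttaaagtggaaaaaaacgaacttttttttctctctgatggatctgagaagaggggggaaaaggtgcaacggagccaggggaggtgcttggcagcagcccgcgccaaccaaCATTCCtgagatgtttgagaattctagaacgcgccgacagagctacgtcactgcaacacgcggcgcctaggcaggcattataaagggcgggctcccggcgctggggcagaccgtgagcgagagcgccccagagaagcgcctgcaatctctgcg
Amotl2: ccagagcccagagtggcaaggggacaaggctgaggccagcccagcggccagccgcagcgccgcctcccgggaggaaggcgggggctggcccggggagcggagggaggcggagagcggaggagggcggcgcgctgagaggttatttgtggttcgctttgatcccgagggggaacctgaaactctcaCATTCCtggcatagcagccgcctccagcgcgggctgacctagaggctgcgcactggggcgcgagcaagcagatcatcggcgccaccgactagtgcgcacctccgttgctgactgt
The Ankrd1 window held 2 matches, which begin 210 and 123 bases before the start. The Cyr61 window held 1 match, 103 bases before the start, and the Amotl2 window 1 match, 65 bases before it. Thus the target that fell most and a target that was not called both hold these letters.

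Of the 7 genes with a promoter entry, 6 held GGAATG on either strand (Yap1, Wwtr1, Tead3, Cyr61, Ankrd1 and Amotl2) and Tead2 did not. These letters were found in 14.7% of the 32851 promoters of the table, and in a promoter of 16.6% of its genes. Matches in both Wwtr1 windows are the same site, as the windows overlap, while 1 of the 3 Tead3 windows held 3 matches. A total of 1.36% of all promoters held more than 1 match. TGANTCA, recognized by AP-1 factors, and the CArG box, recognized by SRF, were found in none of the windows of the 7 genes, against 7.81% and 1.63% of all promoters. Both strands were searched. A match says that the letters are there and not that a factor is bound. There was no entry for Ctgf, Tead1 and Tead4.

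**Figure D4:**
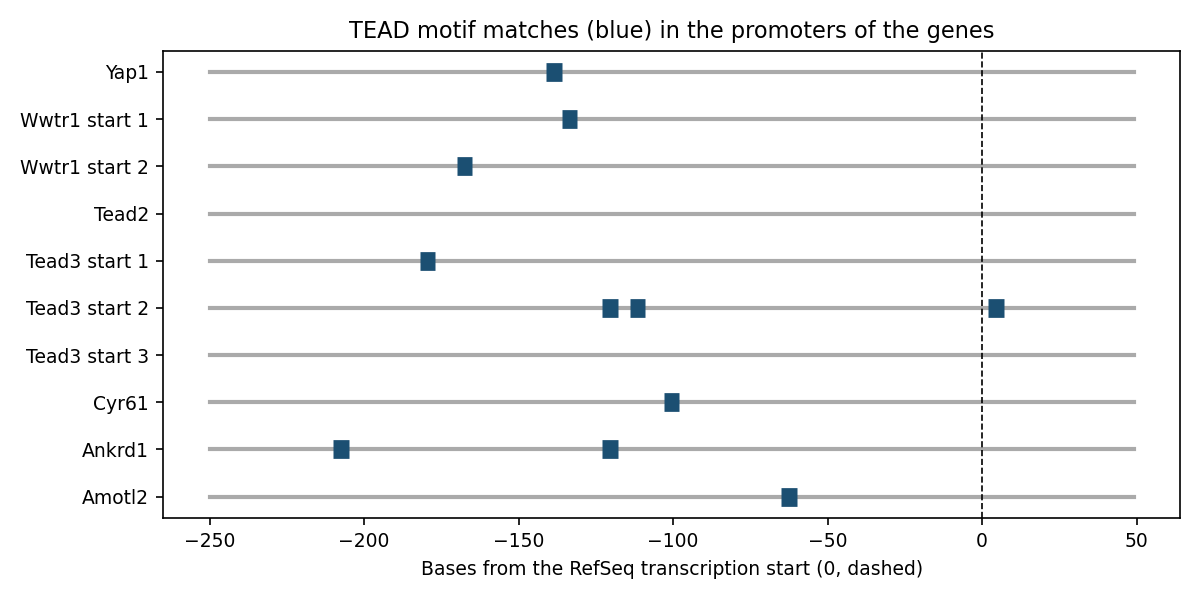
Position of TEAD motif matches (blue) in the RefSeq promoter windows of 7 genes, in bases from the transcription start (horizontal axis, 0 is the start), with genes that have several starts on several lines. Ankrd1 has matches 210 and 123 bases before its start, and the Tead2 line has none.

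Ankrd1 (ENSMUSG00000024803, chromosome 19, 36186455 to 36194334, minus strand) encodes an ankyrin repeat protein of muscle that is also induced by tension and YAP in fibroblasts. It had 2113, 2291 and 1852 normalized counts in Rnf40+/+ and 777, 737 and 770.5 in Rnf40-/- libraries. The Rnf40-/- libraries lay within a narrow range, far below the lowest Rnf40+/+ library. The means were 2085 ± 221 and 761 ± 21.6 (SD, n = 3 each), or 36.5% of the Rnf40+/+ level, a difference of -1.45 in log2 (SE 0.08, limma adjusted p = 1.1e-07). Fits without any 1 library gave values from -1.53 to -1.38. Beside this, the muscle marker Des (desmin) had 431, 126 and 114 normalized counts in Rnf40+/+ and 35.7, 27.1 and 42.5 in Rnf40-/- libraries and was also lower (-2.38 in log2, limma adjusted p = 0.000486). Of the 7 muscle markers, 3 were lower without overlap (Des, Actc1 and Ckm). Of these, Actc1 was high in Rnf40+/+ replicate 1 alone, and Ckm had at most 2 reads in a library. Tnnt2 went the other way, with 62.1, 68.3 and 92.6 normalized counts in Rnf40+/+ and 102, 87.7 and 135 in Rnf40-/- libraries. It was not called (0.53 in log2, limma adjusted p = 0.0586). Myh6 was at or near 0 in every library. The part of muscle cells in the fall of Ankrd1 was not tested. Of the paralogs of Ankrd1, Ankrd23 had 115 ± 11.5 and 120 ± 19.3 normalized counts (SD, n = 3 each), or 0.06 in log2 (limma adjusted p = 0.786), and Ankrd2 had at most 9.18 normalized counts and was not tested.

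Ctgf (ENSMUSG00000019997, chromosome 10, 24315248 to 24318489) encodes connective tissue growth factor, a secreted matricellular protein of the CCN family and a widely used readout of YAP and TAZ. It had 36970.0, 41088 and 32983 normalized counts in Rnf40+/+ and 35214, 35931 and 36841.5 in Rnf40-/- libraries. All 3 Rnf40-/- libraries fell within the range of the Rnf40+/+ libraries. Ctgf differed by -0.03 in log2 with a 95% interval from -0.23 to 0.16 (limma adjusted p = 0.772). The interval excludes a change as large as that of Ankrd1.

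Cyr61 (ENSMUSG00000028195, chromosome 3, 145309935 to 145312949), another secreted CCN protein, had 15415, 15868 and 14260.0 normalized counts in Rnf40+/+ and 16252, 16402 and 16271 in Rnf40-/- libraries. The Rnf40-/- libraries were slightly above all Rnf40+/+ libraries. Its difference of 0.10 in log2 had a 95% interval from -0.04 to 0.25 (limma adjusted p = 0.22) and was not past the threshold. Within a library, the log2 ratio of Ankrd1 to Ctgf was -4.15 ± 0.02 in Rnf40+/+ and -5.56 ± 0.05 in Rnf40-/- MEFs (SD, n = 3 each). The ratio of Ankrd1 to Cyr61 fell from -2.87 ± 0.08 to -4.42 ± 0.05, and neither ratio overlapped between the genotypes (p = 0.1 by an exact two-sided permutation test, the smallest possible, and 0.108 adjusted).

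Amotl2 (ENSMUSG00000032531, chromosome 9, 102619002 to 102635748) encodes an angiomotin-like protein that binds YAP and restrains it, so that it is a target and a regulator. It had 7241, 7864 and 7259.8 normalized counts in Rnf40+/+ and 6473, 6685 and 6152 in Rnf40-/- libraries. The groups did not overlap, but they lay close together, with 86.3% of the Rnf40+/+ level left. Amotl2 fell with a log2 fold change of -0.21 (SE 0.06, limma adjusted p = 0.0177). It was not past the threshold without Rnf40-/- replicate 1 (-0.22, limma adjusted p = 0.066) or without Rnf40-/- replicate 3 (-0.18, limma adjusted p = 0.0724).

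The order of the 10 genes by level per kb spanned a wide range. In Rnf40+/+ MEFs it ran from Ctgf (15403 ± 1686 normalized counts per kb) and Cyr61 (7486 ± 409) over Amotl2 (1684 ± 80.1), Ankrd1 (1181 ± 125), Yap1 (946 ± 92.7), Wwtr1 (818 ± 68.1), Tead1 (609 ± 28.1), Tead3 (441 ± 11.7) and Tead2 (409 ± 30.8) to Tead4 (27.9 ± 5.95, SD, n = 3 each). Between libraries, the ranges of Ankrd1 and Yap1, of Yap1 and Wwtr1 and of Tead3 and Tead2 overlapped, but within each of the 3 libraries the first gene of each pair was the higher. With the longest protein-coding transcripts, Yap1 (1198 ± 117, SD, n = 3) was level with Ankrd1 and above it in 2 of 3 libraries, and Tead3 and Tead2 did not overlap. Ctgf ranked 59 of 20980 genes with a transcript length in Rnf40+/+ and 40 in Rnf40-/- MEFs, and Cyr61 ranked 161 and 127. Ankrd1 went from rank 1202 to rank 3140, and in Rnf40-/- MEFs (431 ± 12.2 normalized counts per kb, SD, n = 3) it stood below Wwtr1, Yap1 and Tead1 in every library with either length. In Rnf40+/+ MEFs it stood above Wwtr1 and Tead1 in every library with either length. In Rnf40-/- MEFs Yap1 was above Tead1 in 2 of 3 libraries, with ranges that overlapped, while Tead3 was above Tead2 without overlap.

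Other members of the CCN family are paralogs of Ctgf and Cyr61. Wisp1, a secreted protein of the WNT response, had 2780.2, 3070.5 and 3217 normalized counts in Rnf40+/+ and 1260.3, 1261 and 1330.4 in Rnf40-/- libraries, or -1.23 in log2 (SE 0.07, limma adjusted p = 1.13e-07). Wisp2 had 1845, 2121 and 1694 against 611, 556 and 694, or -1.60 in log2 (SE 0.10, limma adjusted p = 2.16e-07). Neither overlapped between the genotypes, whereas the libraries of Ctgf did. Nov had 431, 527 and 1617 normalized counts in Rnf40+/+ and 515, 484 and 509.9 in Rnf40-/- libraries, so that its spread came from Rnf40+/+ replicate 3, and its difference of -0.51 in log2 was not called (limma adjusted p = 0.259). Without Rnf40+/+ replicate 1 Nov passed (-0.88, limma adjusted p = 0.0306), and over the fits without a library its difference reached 0.08. Wisp3 had at most 2 reads in a library and was not tested.

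Upstream of YAP and TAZ, a list of 26 other Hippo pathway genes was examined, of which 24 were tested. Vgll1 had no read, and Vgll2 had at most 6 reads in a library. By limma, 16 genes passed as higher and 1 as lower in Rnf40-/- MEFs at the same threshold, and 7 were not called, against 23.3% higher and 24.1% lower among all genes tested. Over the 24 genes the median difference in log2 was 0.31, against -0.0035 for all genes tested. Some of the 16 genes encode regulators that hold YAP and TAZ back, but not all have this role. The list was not sorted by effect on YAP and TAZ. Lats2 and Ptpn14 are also known targets of YAP.

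The 3 largest rises were those of Nf2, Amot and Wwc1. Nf2, which encodes merlin, an activator of the LATS kinases at the membrane, had 1422, 1444 and 1352 normalized counts in Rnf40+/+ and 3271, 3149.7 and 3206 in Rnf40-/- libraries. All libraries of a genotype lay close together, and Nf2 rose by 1.19 in log2 (SE 0.06, limma adjusted p = 5.79e-08). Amot, the gene of angiomotin, a protein of tight junctions that binds YAP, had 1849.9, 2409.7 and 2019.6 against 4299.9, 4407 and 4265 normalized counts, a rise of 1.06 in log2 (SE 0.09, limma adjusted p = 1.81e-06). Wwc1, which encodes KIBRA, a partner of merlin, had 147, 187 and 167 against 292, 286 and 288, a rise of 0.79 in log2 (SE 0.12, limma adjusted p = 0.000234). The 1 gene that fell was Taok3, a kinase of the TAO family, from 958, 1024 and 957 to 813, 722 and 771 normalized counts (-0.35 in log2, limma adjusted p = 0.00255).

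The genes below were set out by role after their values were seen. In the kinase cassette, Stk4 (MST1), its adaptor Sav1 and Lats2 were higher, by 0.42, 0.30 and 0.46 on the log2 scale, whereas Stk3 (0.13), Lats1 (-0.15), Mobkl1a (0.20) and Mobkl1b (-0.01) were not called. The 3 angiomotin genes differed in direction, as Amot and Amotl1 (log2 fold change 0.49, limma adjusted p = 0.000128) rose and Amotl2 fell. In the Ajuba family of LIM proteins, Jub (0.32) and Limd1 (0.47) rose and Wtip (0.04) was not called. Of the vestigial-like genes, whose proteins bind TEAD, Vgll4 rose by 0.67 on the log2 scale and Vgll3 had a log2 fold change of 0.06. Taok1 and Taok2, of the same kinase family as Taok3, rose by 0.25 and 0.65. Dchs1, a ligand of Fat4, had 193, 210.1 and 406 normalized counts in Rnf40+/+ and 173, 161 and 189 in Rnf40-/- libraries and was not called (limma adjusted p = 0.0665), with Rnf40+/+ replicate 3 far above the rest. Without Rnf40+/+ replicate 1, Dchs1 (-0.74, limma adjusted p = 0.0124) and Lats1 (-0.22, limma adjusted p = 0.032) were called lower. Taok1 was not past the threshold without Rnf40-/- replicate 1 or replicate 2 (limma adjusted p = 0.0558 and 0.0536), nor Fat4 without Rnf40-/- replicate 1 (0.0643).

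**Figure D5:**
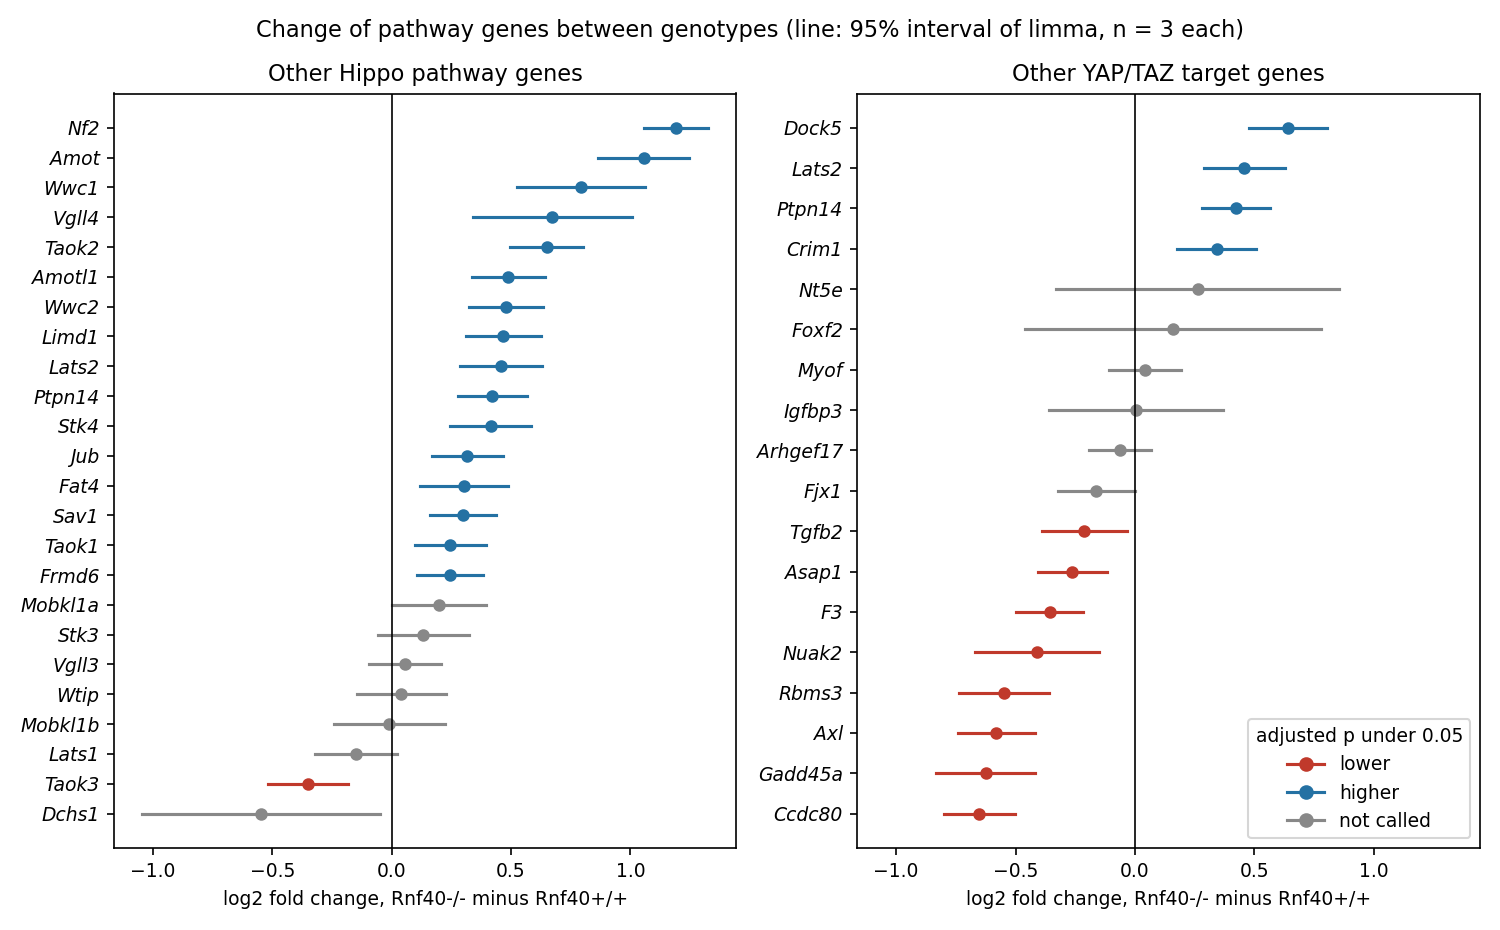
Log2 fold change (Rnf40-/- minus Rnf40+/+, horizontal axes) with the 95% interval of limma for 24 other Hippo pathway genes and 18 other YAP/TAZ target genes (Lats2 and Ptpn14 are in both), in blue where higher, red where lower and grey where not called. On the Hippo side 16 genes are blue and 1 is red, while on the target side 4 are blue and 8 are red.

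Beyond Ctgf, Cyr61, Ankrd1 and Amotl2, 18 other known YAP/TAZ targets were examined, and all of these were tested. By limma 8 were lower, 4 were higher and 6 were not called, with a median of -0.11 in log2 over the 18, against 24.1% lower and 23.3% higher among all genes tested. Of the lower genes, Tgfb2 (limma adjusted p = 0.0483) kept its call only without Rnf40+/+ replicate 3 when single libraries were left out. Nuak2 lost its call without Rnf40+/+ replicate 2 (0.0555). Nt5e was called higher without Rnf40+/+ replicate 1 (limma adjusted p = 0.000863), and Igfbp3 without Rnf40+/+ replicate 3 (0.00692). The largest falls were those of Ccdc80, a secreted matrix protein (-0.65, limma adjusted p = 1.04e-05), Gadd45a, a stress and DNA damage gene (-0.62, adjusted p = 0.000216), and the receptor tyrosine kinase gene Axl (-0.58, adjusted p = 5.31e-05). Axl had 13728, 14598 and 12322 normalized counts in Rnf40+/+ and 8955, 8785 and 9376 in Rnf40-/- libraries, with no overlap. The largest rises were those of Dock5, an exchange factor for Rac (0.64, limma adjusted p = 2.65e-05), Lats2 (0.46, adjusted p = 0.000476) and the phosphatase gene Ptpn14 (0.42, adjusted p = 0.000247). Dock5 had 989, 1089 and 969 against 1531, 1684 and 1539 normalized counts. The 8 fibroblast markers, matrix genes among them, were also lower without overlap, and their part in these falls was not tested. The targets moved in both directions, and none had an absolute log2 fold change above 1. By promoter, 4 of the 12 with an entry in the RefSeq table held GGAATG on either strand.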

How the data were processed

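RNA-seq libraries of 3 Rnf40+/+ and 3 Rnf40-/- MEFs were analysed from the deposited table. According to the study's methods the authors mapped reads to UCSC mm9 mouse transcripts and scaled the samples with DESeq. The submitters' processing notes name Bowtie2 (version 2.1.0) and DESeq (version 1.14.0). The counting tool, and whether it used strand, are not given in the sources used here. Each deposited value (a signal) is a read count over 1 size factor per library: 100% of positive values were whole multiples (within 0.01 reads) of the smallest one, which gave back the reads. Depth was 17053436 to 26344170 reads, and 3 reads were worth between 2.40 and 3.58 normalized counts.

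Low genes were removed by filterByExpr (edgeR, version 4.0.16), and log2(normalized count + 1) was tested with limma (version 3.58.1, trend, genotype only, R version 4.3.3), adjusted over 16378 genes. The added 1 understates changes of low genes. Alternatives were edgeR with TMM and DESeq2 (version 1.42.0) on the recovered reads, upper-quartile scaling, other filters and pseudocounts, a replicate block, each library left out, and the criteria of the study. The fits were tested on simulated data. Shares and ratios within a library, 14 in all, were compared by exact permutation tests (scipy version 1.17.1).

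The genes and lists were chosen with earlier results of these data known, from general knowledge. Named by rule are the 10 genes, their CCN and ankyrin repeat paralogs, and from each list the 3 largest rises and falls with an adjusted p under 0.05 and a mean above 15. Other genes of the lists were named after their values were seen. Lengths and positions are from GENCODE M1 (mm9). Libraries of a genotype differed by more than read sampling noise (chi-square per gene 5.31 to 28.3), so none was a mere copy of another. This does not show whether they came from separate cultures or embryos. Of the 50-base stretches of the members' coding transcripts, at most 0.437% occurred in another gene.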

Additional observations from a re-analysis of the deposited data

How the results depend on the processing

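Direction and call of Yap1, Tead2, Tead3 and Ankrd1 were the same under every alternative run except the limits the study set, which Ankrd1 alone passed. Of the 10 genes, the number called higher was 1 and became 2 with edgeR, with DESeq2 and with a replicate block (same-numbered libraries as pairs), in each case through Tead1 (adjusted p = 0.0399, 0.0338 and 0.043), whose fold change of 0.17 was the same in size. With each library left out it was between 1 and 3, with 3 reached without Rnf40+/+ replicate 2, where Wwtr1 and Tead1 joined Tead4, and the number lower was between 4 and 5. The log2 fold change of Ctgf, near 0, turned from -0.03 to 0.04 without Rnf40+/+ replicate 2, and was between -0.115 and 0.04 with a library left out. The limits the study set were applied to the limma fit and not to the study's own DESeq results, so the counts are not those of the study. Under them 696 genes were higher and 934 lower. Of the 10 genes these were 0 and 1, of the Hippo genes 2 and 0, and of the other targets 0 and 0. These criteria ask for a larger change. The Hippo genes called lower were 1, and 2 with DESeq2 and with the replicate block, and between 1 and 3 with a library left out, the 3 without Rnf40+/+ replicate 1. The Hippo genes called higher were between 14 and 16 with a library left out, and the other targets between 4 and 5 higher and between 6 and 8 lower. Replicate numbers are shared by the genotypes. The deviations of same-numbered libraries correlated by 0.012, 0.017 and 0.021, and the highest value, 0.037, was that of Rnf40+/+ replicate 1 with Rnf40-/- replicate 2. With 3 libraries per genotype, such small values cannot show whether the numbers pair the libraries. Without division by length, the rise in the share of Tead1 was 11.1 in place of 13.8 percentage points, and the changes were -5.99 for Tead2, -5.78 for Tead3 and 0.68 for Tead4. Taking the longest protein-coding transcript, an alternative chosen after seeing the data, gave 13.8 for Tead1. Median log2 fold changes of all genes stayed between -0.014 and 0.033 under all alternatives. With 82 to 180 reads, Tead4 is the gene whose values are limited most by depth.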
